A study of Mus musculus with 4 samples.

Results

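The genes described here are Igkc, Ighm, Ighd, Iglc2, Cd79a and Cd79b, which encode the constant parts of immunoglobulin chains and the signalling chains of the B cell receptor. They were chosen by name from earlier results of these same tables, as genes listed for the cell type named Plasma cell, so every value on them is a description and no test was made. The 6 genes are among 1679 genes of a table of markers of cell types, and 1 of them is among 2629 genes of a table of markers of subclusters of group 2 innate lymphoid cells (ILC2s), tissue lymphocytes that make type 2 cytokines and carry no antigen receptor.

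The 3' ends of transcripts were sequenced in single cells from the livers and lungs of 8-week-old wild-type BALB/c mice. The mice had received an intraperitoneal injection each day for 5 days, either of PBS (the control) or of 0.5 µg recombinant IL-33 (rIL-33), an alarm cytokine that activates ILC2s. Each organ thus gave a PBS group and an rIL-33 group, 4 groups in all, with 1 library in each. Cells of all groups were sorted as CD127+, Thy1+ and ST2+ and as negative for a panel of lineage proteins (CD3e, Ly6G, Ly6c, CD11b, CD45R, TER119 and TCRb), and 10000 to 20000 were loaded per library. CD45R is a surface protein of B cells, so the gate was set to remove them. Per the study's methods, tissues of several mice were pooled in each group, so the spread between mice is not in the data.

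Both tables pool the 4 libraries and hold no value per library, so organ and treatment could not be compared, and there is no replicate spread for any value. A row gives 1 gene for 1 cluster and is called a listing here. It holds the share of the cluster's cells in which the gene was above 0 and the same share in all other cells, rounded to 3 decimals. The authors' tool lists a gene where its average level is higher in the cluster, so a listing can go with a lower share of cells. A gene with no listing for a cluster has no value there. The depth per cell, the number of cells and the free RNA of each library were not in the tables. The cell type table held 4422 listings over 21 types and the ILC2 subcluster table held 3745 listings over 10 subclusters.

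A B cell receptor is a membrane-bound immunoglobulin of heavy and light chains, paired with a heterodimer of CD79A and CD79B. The immunoglobulin binds antigen and has almost no part inside the cell, while the CD79 chains carry tyrosine motifs that are phosphorylated by Lyn and bind Syk. Naive B cells carry IgM and IgD, made from 1 heavy chain locus by splicing. Plasma cells, the antibody-secreting end stage of the lineage, turn to the secreted form, raise Xbp1, Prdm1 and Sdc1, and lower Pax5, Ms4a1 and MHC class II.

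The 2 kinds of light chain come from separate loci. In the mouse reference genome (GRCm38, which is mm10; strain C57BL/6J), Igkc lies on chromosome 6 at 70726435 to 70726966 on the plus strand, and its 1 exon is the whole constant region of the kappa chain. Iglc2 lies on chromosome 16 at 19198396 to 19200351 on the minus strand and encodes a constant region of the lambda chain. So do Iglc3 (19065230 to 19065681) and Iglc1 (19061618 to 19062071) on the same strand, which lie beside each other. The last 120 coding bases of these lambda genes, from GENCODE transcripts, are shown because reads from the 3' end must tell the copies apart. Such reads can also fall in the bases after the stop codon (140 in Iglc2, 135 in Iglc3, 134 in Iglc1), which were not compared. Capitals mark bases that differ from Iglc2.
Iglc2 (chr16:19198536-19198655, minus strand): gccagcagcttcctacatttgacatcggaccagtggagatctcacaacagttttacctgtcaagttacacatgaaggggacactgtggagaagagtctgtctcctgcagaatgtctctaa
Iglc3 (chr16:19065365-19065484, minus strand): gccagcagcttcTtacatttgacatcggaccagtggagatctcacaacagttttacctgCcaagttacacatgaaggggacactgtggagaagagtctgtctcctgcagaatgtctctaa
Iglc1 (chr16:19061752-19061871, minus strand): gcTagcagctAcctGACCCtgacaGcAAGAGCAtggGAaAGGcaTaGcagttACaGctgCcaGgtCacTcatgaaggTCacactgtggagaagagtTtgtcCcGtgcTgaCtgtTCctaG
Iglc3 differed from Iglc2 at 2 of the 120 bases (98.3% identity, and 96.5% over 317 aligned coding bases), and Iglc1 at 39 (67.5% identity). How reads were shared between Iglc2 and Iglc3 is not given in the sources used here, so the values of these copies are uncertain. The mice were BALB/c, whose alleles can differ from the reference.

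Ighm, the constant region of the IgM heavy chain, lies on chromosome 12 at 113418558 to 113422730 on the minus strand, and Ighd, that of IgD, lies beside it at 113406604 to 113416324. Ighm is spliced to a secreted or a membrane end, and these 2 ends are shown because they separate an antibody from a receptor, while the tables give 1 value per gene. The last 30 shared coding bases are in lower case and the bases of each end alone in capitals.
Ighm, secreted end (chr12:113420867-113420958, minus strand): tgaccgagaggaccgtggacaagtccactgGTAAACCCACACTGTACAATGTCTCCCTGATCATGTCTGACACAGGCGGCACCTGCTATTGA
Ighm, membrane end (chr12:113418826-113420958, minus strand, an interval with introns): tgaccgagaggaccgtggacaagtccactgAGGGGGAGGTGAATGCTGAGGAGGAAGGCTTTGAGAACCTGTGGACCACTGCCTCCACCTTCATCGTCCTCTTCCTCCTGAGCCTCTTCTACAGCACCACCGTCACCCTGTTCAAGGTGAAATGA
The secreted end held 62 bases of its own and the membrane end 125. Which form the sorted cells carried cannot be read from these tables.

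Cd79a lies on chromosome 7 at 24897381 to 24902197 on the plus strand, with 5 exons, and Cd79b on chromosome 11 at 106311341 to 106314762 on the minus strand, with 6 exons. The 45 bases of each that encode the paired tyrosine motif are shown as the signalling part that the chains share. Capitals mark the codons of the tyrosines and of the leucine or isoleucine that follows each.
Cd79a (chr7:24901296-24901469, plus strand, an interval with an intron): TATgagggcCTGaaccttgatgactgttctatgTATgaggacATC
Cd79b (chr11:106311867-106312012, minus strand, an interval with an intron): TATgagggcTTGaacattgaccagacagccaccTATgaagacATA

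The 6 genes had 18 listings in the cell type table, of which 12 lay outside the type named Plasma cell. Of the 21 types, 9 listed at least 1 of the genes and 12 listed none. Ighd and Iglc2 were listed for Plasma cell alone, Igkc and Cd79a for 2 types, Cd79b for 5 and Ighm for 7. Among all 1679 genes, 62.2% were listed for at least 2 types (4 of the 6 genes here), 16.6% for at least 5 types (Ighm and Cd79b) and 5.24% for at least 7 types (Ighm). The choice of the genes used these listings, so nothing is read from these counts.

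**Figure D1:**
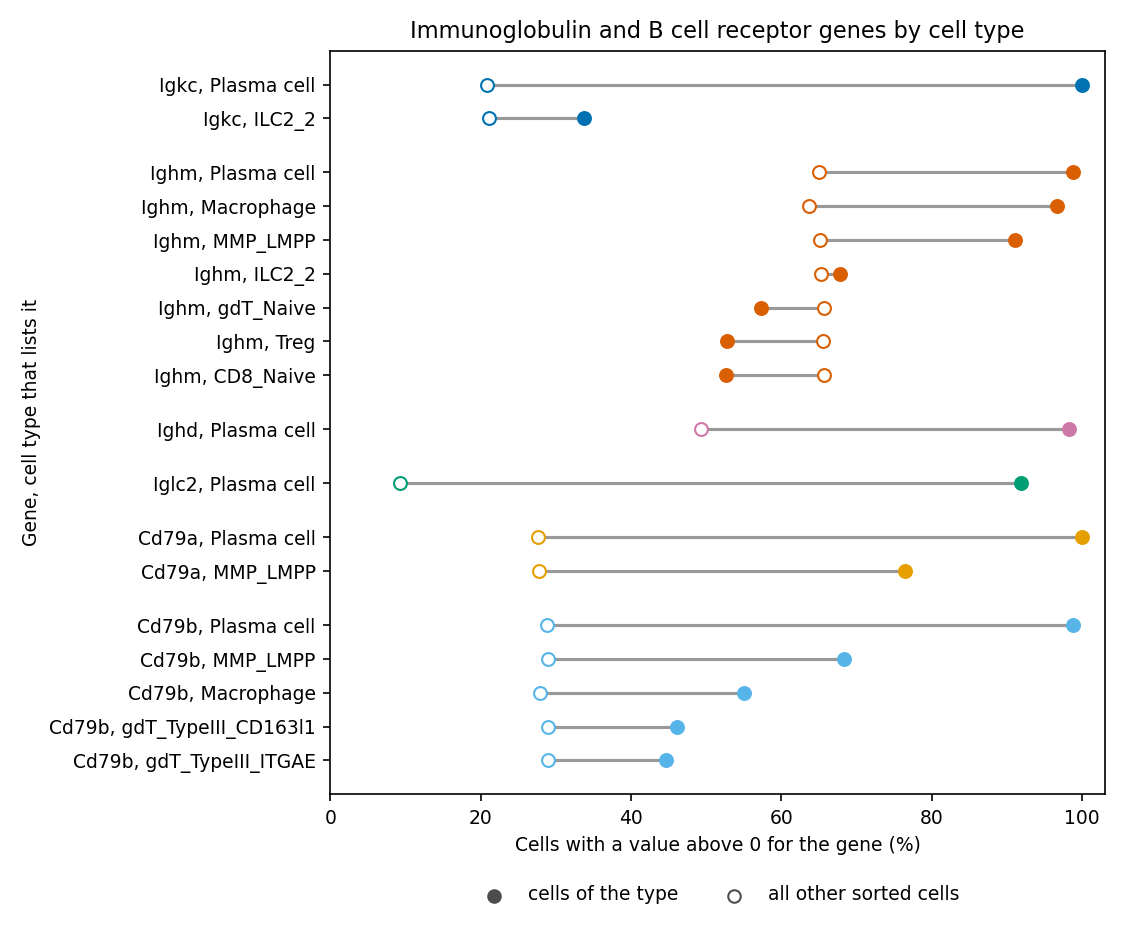
Share of cells in which each of the 6 genes was above 0 (horizontal axis, percent), inside each listing cell type (filled points) and in all other cells (open points), from tables that pool 4 libraries, with no error bars because no value per library exists. The filled points of Plasma cell sit between 91.8% and 100%, and Ighm is the gene with listings whose filled point lies left of the open one (gdT_Naive, Treg and CD8_Naive).

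Kappa light chain values were above 0 in every cell of Plasma cell and in a minority of the other sorted cells. For Igkc the share was 100% in Plasma cell against 20.9% of other cells, a difference of 79.1 percentage points. The other type that listed it, ILC2_2, had 33.8% of cells above 0 against 21.1%, a difference of 12.7 points. Among the genes of each list, ordered by the difference between both shares, Igkc stood at place 4 of 204 in Plasma cell and at place 59 of 200 in ILC2_2. In the types that did not list Igkc the mean share was 20.7%.

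The lambda gene Iglc2 had the lowest share outside its listing type of the 6 genes. It was above 0 in 91.8% of Plasma cell and in 9.3% of other cells, a difference of 82.5 points and a ratio of 9.87. This was place 2 of 204 in that list. The copies Iglc3 and Iglc1 were also listed there. Iglc3 was above 0 in 92.4% against 18.8%, and Iglc1 in 53.5% against 9.7%. Iglc3 was listed for Macrophage as well, at 85.8% against 16.0%, place 24 of 291, whereas Iglc2 was not listed there.

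The IgM heavy chain gene had listings for more types than the other 5 genes, 7 against 5 for Cd79b. The order turned when only listings with a share above that of the other cells were counted, with 4 for Ighm and 5 for Cd79b. Ighm was above 0 in 98.8% of Plasma cell against 65.0% of other cells. In Macrophage it was above 0 in 96.6% against 63.7%, and in MMP_LMPP, a name that stands for early progenitors, in 91.1% against 65.1%. These shares lie 33.8, 32.9 and 26.0 points above the other cells, whereas in ILC2_2 the shares were 67.8% and 65.2%, only 2.6 points apart. Ighm was also listed for 3 T cell types in which fewer cells were above 0 than elsewhere. The share was 57.3% against 65.7% in gdT_Naive. In Treg, regulatory T cells, it was 52.8% against 65.5%. CD8_Naive had 52.6% against 65.6%. Listings with a share below that of the other cells made up 16.3% of the table and 3 of the 18 listings here.

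The IgD heavy chain gene had 1 listing. Ighd was above 0 in 98.2% of Plasma cell and in 49.3% of other cells, a difference of 48.9 points and place 29 of 204. Ighd lies in the same locus as Ighm, but the 6 types that listed Ighm beside Plasma cell did not list Ighd.

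Both chains of the signalling heterodimer were listed for Plasma cell and for MMP_LMPP. Cd79a was above 0 in 100% of Plasma cell against 27.6%, and in 76.4% of MMP_LMPP against 27.8%. Cd79b was above 0 in 98.8% of Plasma cell against 28.8%, and in 68.3% of MMP_LMPP against 29.0%. For both genes the share was lower in MMP_LMPP than in Plasma cell.

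Cd79b had 3 listings that Cd79a did not share. In Macrophage it was above 0 in 55.0% against 27.9%. The other 2 were innate-like gamma delta T cell types: gdT_TypeIII_CD163l1 had 46.1% against 28.9%, and gdT_TypeIII_ITGAE had 44.6% against 29.0%. Ordered by share, the listing types of Cd79b ran Plasma cell, MMP_LMPP, Macrophage, gdT_TypeIII_CD163l1 and gdT_TypeIII_ITGAE. Whether the last 2 differ cannot be said without replicates.

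Read by cell type, Plasma cell listed 6 of the 6 genes, where 12.2% of all 1679 genes were listed for it. MMP_LMPP listed 3 (Ighm, Cd79a and Cd79b; 24.0% of all genes). ILC2_2 listed 2 (Igkc and Ighm; 11.9%), and Macrophage 2 (Ighm and Cd79b; 17.3%). A single gene was listed for CD8_Naive (11.8% of all genes), Treg (8.93%), gdT_Naive (8.87%), gdT_TypeIII_CD163l1 (11.4%) and gdT_TypeIII_ITGAE (11.7%). The larger type named ILC2 listed none of the 6 (8.10% of all genes).

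The sizes of the types, solved from the shares as described under the processing, give how many of the cells above 0 lay in each type. Plasma cell held 0.542% (SE 0.00936, rounding only) of all sorted cells, MMP_LMPP 0.387%, ILC2_2 1.78% and Macrophage 4.59%. Because Plasma cell was so small, it held few of the cells above 0 even where nearly all of its own cells were. It held 2.54% of the cells above 0 for Igkc, 5.10% for Iglc2, 1.07% for Ighd and 0.821% for Ighm. For Cd79a it held 1.94% and for Cd79b 1.84%. ILC2_2 held 2.81% of the cells above 0 for Igkc, slightly more than Plasma cell.

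Most cells above 0 lay in types with no listing for the gene. Over all sorted cells, the share above 0 was 65.2% for Ighm, 49.6% for Ighd, 29.2% for Cd79b, 28.0% for Cd79a, 21.3% for Igkc and 9.75% for Iglc2. Of the cells above 0, the types with no listing held 98.9% for Ighd, 97.0% for Cd79a, 94.9% for Iglc2, 94.6% for Igkc, 84.5% for Cd79b and 80.8% for Ighm. In those types the mean share was 64.4% for Ighm, 49.3% for Ighd, 27.4% for Cd79a, 26.8% for Cd79b, 20.7% for Igkc and 9.3% for Iglc2. The listing types together made up 18.1% of sorted cells for Ighm and held 19.2% of the cells above 0. For Cd79b they made up 8.19% and held 15.5%.

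**Figure D2:**
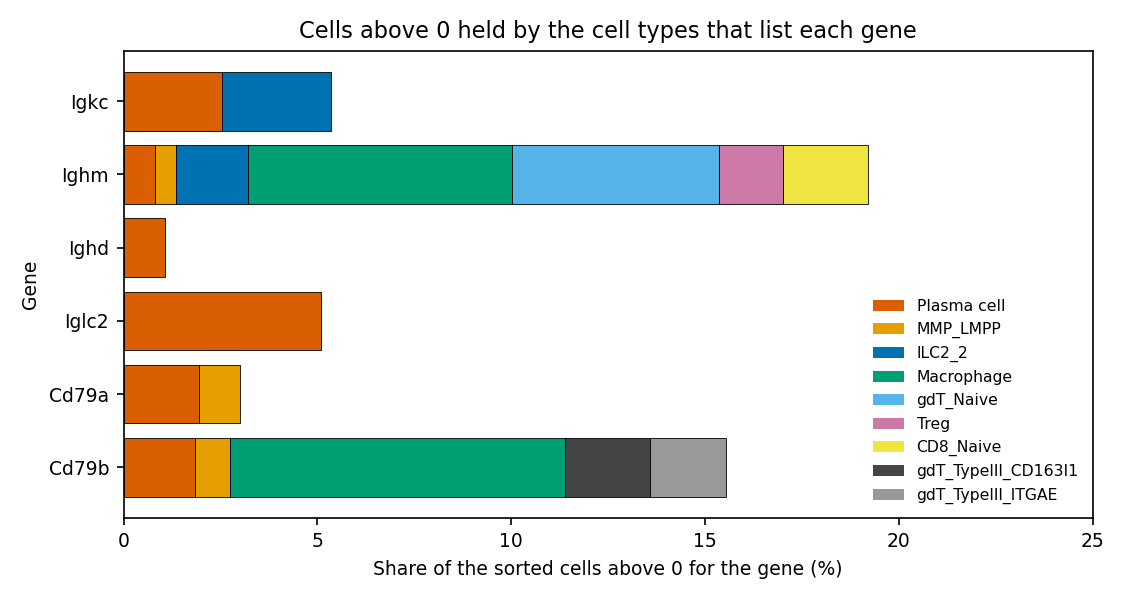
Percent of all cells above 0 for a gene that lay in each listing cell type (horizontal axis, stacked bars by gene that start at 0), from shares and solved type sizes, with no error bars because the tables hold no value per library. Macrophage held 8.66% of the cells above 0 for Cd79b and 6.80% for Ighm, more than Plasma cell held for either gene.

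Whether a value above 0 stands for a detected transcript is not known. The authors did not state which form of the data the tables used, and the cell type table lies higher than the ILC2 subcluster table. Over the 820 genes in both, the median share of cells above 0 was 56.8% of all sorted cells and 35.2% of the ILC2s. If both tables were on 1 scale and the ILC2s were the types ILC2 and ILC2_2 (45.0% of cells), 74 of the 820 genes (9.02%) would lie above the highest share possible. Cd3e, a T cell receptor chain, was such a gene, at 83.5% against a limit of 57.6%. Cd79b, the only 1 of the 6 genes in both tables, lay within its limits, at 29.2% between 10.7% and 65.7%. Limits this wide cannot show whether its values are on 1 scale. Shares are therefore compared within 1 table only, and a high share among other cells is not read as expression.

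In the ILC2 subcluster table the only listing of the 6 genes was Cd79b in subcluster 1. It was above 0 in 38.7% of that subcluster against 19.9% of the other ILC2s, a difference of 18.8 points and place 109 of 363. Subcluster 1 listed 13.8% of the 2629 genes. It made up 20.1% of the ILC2s and held 32.8% of the ILC2s above 0 for Cd79b, so 67.2% lay in other subclusters. Over all ILC2s, 23.7% were above 0 for the gene. No immunoglobulin gene (0 of 15 in the list) was listed for any subcluster, and Cd79a was not listed either. Per the study, cells with markers of other lineages, Cd45r among them, were left out before this clustering, so nothing is read from that absence. Of 19 genes of B cell receptor signalling, 4 were listed for some subcluster, and Cd79b was the only 1 of them in subcluster 1.

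The name Plasma cell was checked against lists of lineage genes. Of 18 B cell identity genes it listed 14, of 19 receptor signalling genes 15, of 10 MHC class II genes 8 and of 16 plasma cell genes 5. Cd79a and Cd79b are among the 15, and were chosen for being listed there. Over the immunoglobulin, signalling and identity lists together (52 genes, 37 of them in the table, called the 3 B lineage lists here), Plasma cell listed 35, or 29 without the 6 genes. Ms4a1, which encodes CD20, was above 0 in 93.5% against 13.2%. Pax5, the factor that holds B cell identity, was at 80.0% against 6.3%, and Ebf1, a factor of early B cell commitment, at 99.4% against 23.2%. Cd22 and Cr2, co-receptors of the B cell receptor, were at 84.1% against 18.6% and 80.0% against 17.5%. These are genes that plasma cells lower or lack, and none of the 12 T cell genes or the 11 ILC2 genes was listed there.

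Of the 16 plasma cell genes, 9 were in the table, and the 5 that Plasma cell listed were more than any other type listed (at most 3). Mzb1, a chaperone of immunoglobulin assembly also found in other B cells, was at 91.8% against 18.8%. Xbp1, the factor of secretory expansion, was at 65.9% against 53.5%, Txndc5 at 70.0% against 45.2% and Edem1 at 66.5% against 43.1%. Irf4, a factor needed for plasma cells, was above 0 in fewer cells than elsewhere, at 16.5% against 32.5%. Sdc1, which encodes CD138, and Prdm1, which encodes Blimp-1, were listed for other types and not for this one. Jchain, Tnfrsf17 and Derl3 were in no cell type list, and whether they were tested is not known. The type thus carried markers that plasma cells lower or lack, beside 5 plasma cell genes and without Sdc1 and Prdm1, and it is called here by the name in the table only. The gate's negative selection on CD45R stands beside these values, and how such cells came to be sorted was not tested.

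**Figure D3:**
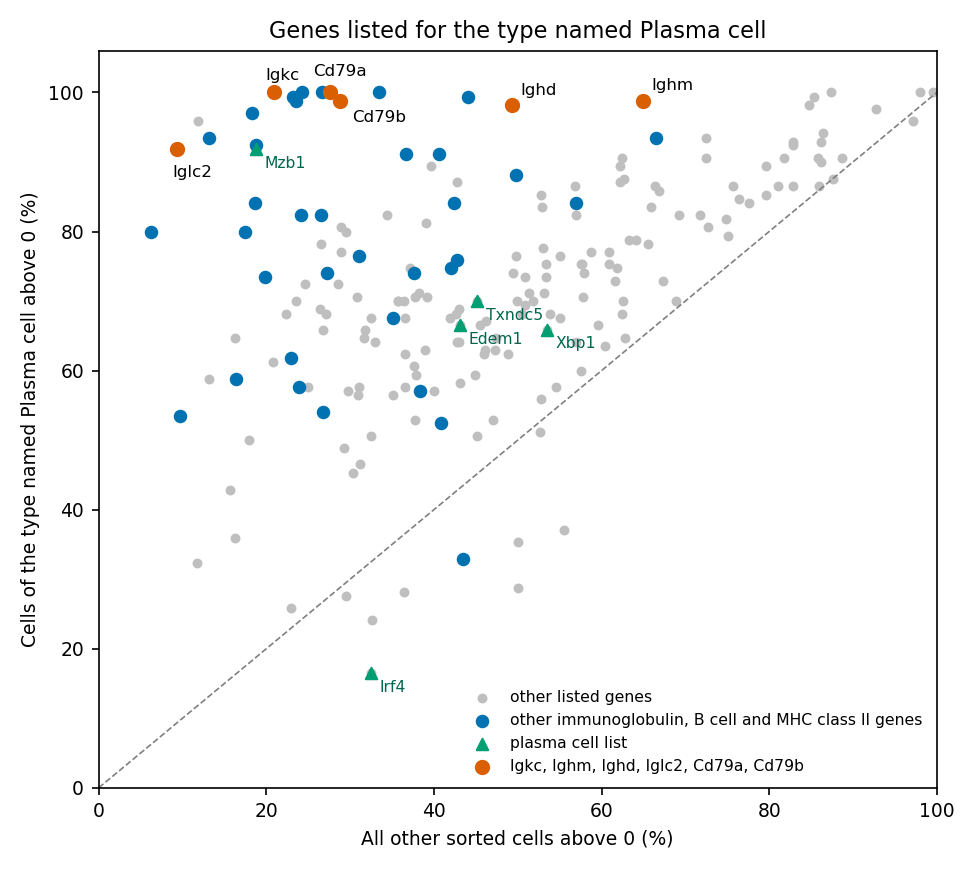
Share of cells above 0 in Plasma cell (vertical axis, percent) against the share in all other cells (horizontal axis, percent) for its 204 listed genes, with the 6 genes and lists of B cell, plasma cell and MHC class II genes marked, and with no error bars because the libraries are pooled. The 6 genes lie at 91.8% or above on the vertical axis, while Irf4 and Fcgr2b lie under the line of equal shares.

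Among the 204 genes listed for Plasma cell, the largest difference was that of Scd1, a desaturase of fatty acid synthesis, at 95.9% against 11.9% (84.0 points). Iglc2 (82.5 points) and Ms4a1 (80.3 points) came next. The 6 genes had a median difference of 71.2 points (range 33.8 to 82.5), beside 21.4 points over all 204. They were chosen as genes listed for this type, so nothing is read from that gap. The 8 MHC class II genes had a median of 69.5 points, with Cd74, H2-Aa and H2-Eb1 above 0 in 100% of the type. The 15 receptor signalling genes, Cd79a and Cd79b among them, had a median of 53.7 points. The 14 B cell identity genes had 43.6 points and the 5 plasma cell genes 23.4 points.

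Downstream of the receptor, kinases and adaptors of the pathway were listed for Plasma cell as well. Syk was above 0 in 74.7% against 42.0%, Lyn in 74.1% against 37.6%, Btk in 54.1% against 26.8%, and the adaptors Blnk in 61.8% against 23.0% and Bank1 in 91.2% against 36.7%. Fcgr2b, an inhibitory receptor for IgG, had a lower share inside the type, 32.9% against 43.5%. Pou2af1, a coactivator of immunoglobulin genes, was at 84.1% against 42.4%, and Fcmr, the receptor for IgM, at 97.1% against 18.3%.

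Of the 37 genes of the 3 B lineage lists with a listing for any type, MMP_LMPP listed 16, or 13 without Ighm, Cd79a and Cd79b. It listed 24.0% of all genes. Ebf1 was at 94.3% against 23.3%, Vpreb3, of the surrogate light chain family, at 95.9% against 38.3%, and Fcrla, an Fc receptor-like protein of B cells, at 95.1% against 26.5%. Irf4 was at 98.4% against 32.2%, the reverse of its order in Plasma cell. Ms4a1 and Pax5 were not listed, nor was any light chain gene. The 3 genes listed here had a median difference of 39.3 points, beside 29.8 over the 403 genes of the type. It also listed 5 of the 10 MHC class II genes, among them Cd74 (90.2% against 27.8%) and H2-Eb1 (90.2% against 24.5%). Of the 16 plasma cell genes it listed 3, which were Irf4, Mzb1 (78.0% against 19.0%) and Sdc1 (43.9% against 33.5%).

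Of the 37 genes of the 3 B lineage lists with a listing for any type, Macrophage listed 15, or 13 without Ighm and Cd79b. It also listed 3 of 9 macrophage genes (Lyz2, Cd68 and Cst3). It listed the same 8 MHC class II genes as Plasma cell, among them H2-Aa (88.2% against 24.2%) and H2-Eb1 (85.1% against 21.8%). Iglc3 was at 85.8% against 16.0%, Blnk at 85.5% against 20.2%, Siglecg at 74.0% against 17.5%, and Spib, a factor of B cells and of plasmacytoid dendritic cells, at 88.3% against 24.7%. Syk (94.4% against 39.7%), Lyn (82.8% against 35.6%) and Fcgr2b (96.2% against 40.9%) are also used by myeloid cells. Cd79a, Ms4a1, Pax5 and Igkc were not listed. The differences of Ighm (32.9 points) and Cd79b (27.1 points) lay under the median of 41.7 points over the 291 genes of the type.

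The other listing types carried few further B lineage genes. Both gdT_TypeIII types listed Blk, a Src family kinase of B cells and of some gamma delta T cells, at 90.0% against 47.3% in gdT_TypeIII_CD163l1 and 87.0% against 47.4% in gdT_TypeIII_ITGAE. Both also listed Pik3ap1, an adaptor that links receptors to PI3K. They listed 5 and 6 of the 12 T cell genes. ILC2_2 listed Igkc and Ighm beside Ralgps2 (27.8% against 50.4%) from the B lineage lists, and beside 4 of 11 ILC2 genes and 3 of 12 T cell genes. It also listed 3 of the 16 plasma cell genes, with Xbp1 at 68.7% against 53.3%, a wider gap than that of Igkc, Prdm1 at 31.1% against 37.8% and Slamf7 at 34.4% against 53.7%. CD8_Naive, Treg and gdT_Naive listed 9, 8 and 7 T cell genes, and the B lineage genes that CD8_Naive listed were all above 0 in fewer cells than elsewhere (Cxcr5 at 19.2% against 43.7%, for example).

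**Figure D4:**
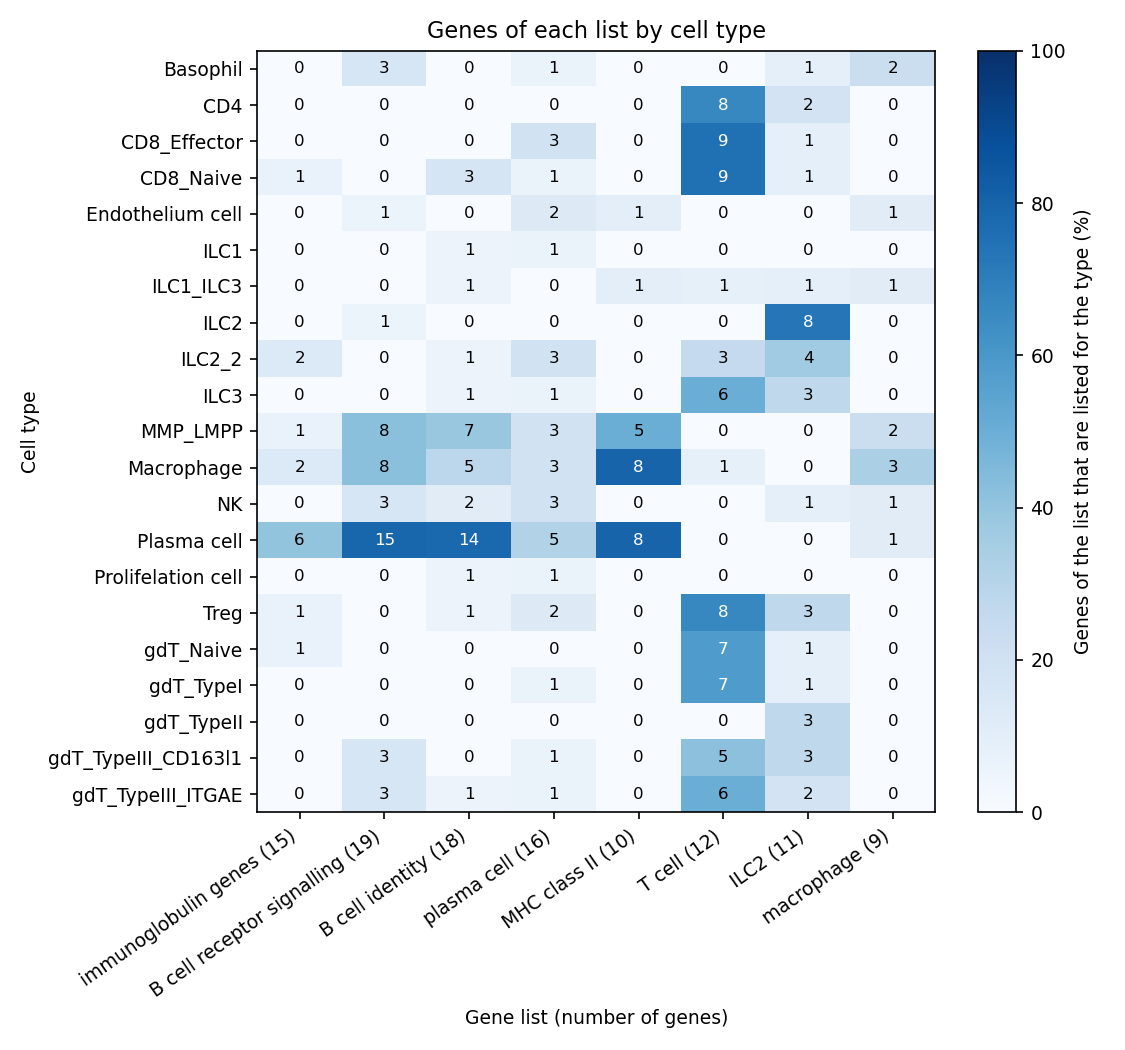
Number of genes of each lineage list (columns) that were listed for each cell type (rows), from tables that pool 4 libraries. Plasma cell has the most receptor signalling (15) and B cell identity (14) genes, followed by MMP_LMPP (8 and 7) and Macrophage (8 and 5).

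Genes listed for the types most like those of each of the 4 spread genes were found by the Jaccard index, the number of types listing both genes over the number listing either, across 21 types. Cd79a shared both of its types with Ebf1 (index 1, mean difference in share 9.25 points), then Chst3 and Vpreb3, with 4 genes at that index. Cd79b was nearest to Pik3ap1 (0.833, 5 of 6 types), then Zfp36 (0.625) and Mzb1 (0.6, 3 of 5 types). Ighm was nearest to Ctss and Il6st (0.625 each, 5 of 8 types, with 6 genes at that index). Igkc was nearest to Sfpq, Rcc2 and Txndc11 (0.667 each, with 4 genes at that index). These indices rest on few types, all from the same 4 libraries, and describe listings only.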

How the data were processed

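Cells from 4 libraries (1 per group) were encapsulated by droplet and read from the 3' end. Per the labels and the study's methods, the authors aligned reads with Cell Ranger to mm10, left out immune cells with few genes, scaled counts per cell to a common total and log transformed them, clustered the cells in Seurat and named the types by hand. Doublets were removed by flow cytometry, and no doublet caller was described. The values used were deposited by the authors as fractions of cells with a value above 0, printed here as percent. The deposited tables also hold log2 fold changes and p-values of the authors' own comparisons. Of these only the sign of the fold changes was used. There were 0 further columns of per-sample values.

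A gene's share over all cells is its share outside a cluster plus that cluster's size times the gap between its 2 shares, and must come out the same from each cluster listing the gene. Cluster sizes were solved from this by least squares on genes with 2 or more listings, without the 6 genes (1041 genes in the cell type table, 768 in the ILC2 subcluster table), and the script was tested on simulated data. Sizes summed to 100.046% and 100.163%. The standard errors cover rounding only. No listing had a fold change below 0, and the higher share was at least 25% in every listing. Python 3.11.15, numpy 2.4.6, pandas 2.3.3 and matplotlib 3.10.9 were used, and sequences came from GENCODE M21.

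Genes named in the text were the 6 genes wherever listed, genes of the lists on immunoglobulins, receptor signalling, B cell identity, plasma cells and MHC class II in a type that lists any of the 6, the 3 genes most like each spread gene, and the 3 genes with the largest difference in Plasma cell. Cd3e and the genes of types that list none of the 6 fall outside this rule and were chosen after their values were seen. T cell, ILC2 and macrophage lists were used to check the names of types. The 6 genes and the lists were chosen with earlier results of these data known. The alternatives tried were other fits of the sizes and stricter rules for a listing. Some genes that this rule names are not reported here.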

Additional observations from a re-analysis of the deposited data

How the results depend on the processing

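The 172 values recomputed under other fits of the cluster sizes moved by at most 0.0213 percentage points. Among the counts, the number of cell types that list Ighm, 7 as deposited, was the only 1 that moved by over 1.5 times. It was 4 when only listings with a share above that of the other cells were counted, and 3 when the share had to be at least 10 points above, while the number for Cd79b was 5 in each case. Without the 6 genes, the B lineage genes listed went from 35 to 29 for Plasma cell, from 16 to 13 for MMP_LMPP and from 15 to 13 for Macrophage. No paired analysis was possible because the tables pool the 4 libraries, 1 from each group, so replicates could not be left out either. The tables give neither depth nor the number of cells behind a share, and values of Plasma cell and MMP_LMPP rest on under 1% of the sorted cells.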

Other observations

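B lineage genes were also listed for 8 of the 12 types that list none of the 6 genes. The counts stand beside each type's share of all genes, and no spread of the lineage is read from them. Basophil, which listed 16.4% of all 1679 genes, listed 3 of the 37 B lineage genes that had a listing for any type. They were Fcgr2b (89.6% of its cells above 0 against 43.0% of other cells), an inhibitory receptor for IgG, and the kinases Btk (58.8% against 26.6%) and Lyn (56.7% against 37.6%), which mast cells and basophils use downstream of the IgE receptor. NK, which listed 11.7% of all genes, listed 5 of the 37. They were Syk (56.5% against 41.6%), Fcgr2b (56.6% against 43.0%), Pik3ap1 (53.5% against 40.5%), Mef2c (52.3% against 44.1%) and, with fewer cells above 0 than elsewhere, Cd55 (56.7% against 67.0%).

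The other 6 types listed 1 of the 37 genes each, a smaller share than that of all 1679 genes. The latter was 30.6% for Prolifelation cell, 23.6% for Endothelium cell, 13.4% for ILC1_ILC3, 9.11% for ILC3, 8.64% for ILC1 and 8.10% for ILC2. The type spelled Prolifelation cell in the table listed Ly6d (78.1% against 20.5%), a surface protein used to mark B cell commitment. ILC1_ILC3 listed Cxcr5 (77.6% against 42.8%), the receptor for the follicle chemokine CXCL13, and ILC1 listed Tnfrsf13c (55.0% against 30.1%), which encodes the receptor for BAFF. Endothelium cell listed Lyn (60.2% against 37.6%). ILC2 listed Cd81 (75.4% against 43.2%), a tetraspanin found on B cells and on many other cells, and ILC3 listed Ralgps2 at a lower share than elsewhere (47.8% against 50.0%).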
